A study of Mus musculus with 8 samples.

Results

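The Id genes (Id1, Id2, Id3 and Id4) and the E-protein genes (Tcf3, Tcf4 and Tcf12) were followed by gene symbol in the deposited count table, in which all 7 symbols were found among 37310 genes. The study compared NMuMG cells, an epithelial line from mouse mammary gland, with a line in which a fragment of the long non-coding RNA gene Lnc-Nr6a1 had been deleted with CRISPR-Cas9 guides placed in its promoter and the first exon. Each line was sequenced untreated and after 2 h with 10 ng/ml TGF-β, which gave 4 groups (control, control_TGFb2h, KO and KO_TGFb2h) of 2 libraries each. Every group was grown in DMEM with serum and insulin, and the treated groups received TGF-β in addition. The edited line came from sorted single-cell clones, and which clones were sequenced was not given in the sources used here, so a difference between the lines cannot be told apart from a difference between clones.

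E proteins are basic helix-loop-helix (bHLH) transcription factors that bind E-box DNA as dimers, either with each other or with tissue-restricted bHLH partners. Id proteins carry the helix-loop-helix but lack the basic region that touches DNA, so a dimer of an Id protein and an E protein cannot bind. Id genes are classical direct targets of BMP signalling through SMAD1 and SMAD5, and in many epithelial cells TGF-β represses them through SMAD3, for Id1 together with the factor ATF3. In epithelial cells E proteins such as the Tcf3 products E12 and E47 can repress the E-cadherin gene, and Id proteins hold them in check.

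Total counts ranged from 4297832 to 13574397 per library, and the treated libraries (9895118 to 13574397) were all deeper than the untreated ones (4297832 to 7871090). Reads of the targeted gene numbered 3 and 14 in control, 25 and 35 in control_TGFb2h, 11 and 7 in KO and 0 and 0 in KO_TGFb2h. The untreated libraries were therefore not separated by this gene, and the edited line is called by its label throughout. Keratin genes marked all libraries as epithelial (Krt8 between 2130 and 4350 CPM, read counts scaled to a common library size, and Krt18 between 2440 and 5800), while Epcam had at most 2 counts and Cldn7 had 0 in every library. The summed level of the 7 epithelial markers was 5870 to 5950 CPM in control and 8030 to 10900 in control_TGFb2h libraries, and 6630 to 6970 and 7940 to 10400 in the libraries labelled knockout. The 6 fibroblast markers together reached at most 4.85 CPM. Libraries also differed with the GC content of the exons: across 13028 genes, the log2 difference between replicate 2 and replicate 1 had a Pearson correlation with GC of −0.345 in control, −0.419 in control_TGFb2h, −0.031 in KO and 0.305 in KO_TGFb2h. A second fit with a GC correction of each library was therefore added after this was seen. Its values are given for the members where it changed a call and for the members named with it. For genes of the lists below only the change of call is given. The plot of the changes shows the corrected values for every tested member. The study's methods call the 2 libraries of a group biological replicates, and whether they were separate cultures was not stated, so the p-values measure the spread between these libraries, which may be technical.

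The starts of the Id genes are shown because Id2 and Id3 are among the members that passed a test below. For each gene the 250 bases before the start annotated by RefSeq (build GRCm38.p6) are given 5′ to 3′ on the gene's strand, and capitals mark a match to a motif searched on both strands. Id2 lies on the minus strand (chr12:25096093-25096342), Id3 on the plus strand (chr4:136143572-136143821) and Id4 on the plus strand (chr13:48260866-48261115).
Id2: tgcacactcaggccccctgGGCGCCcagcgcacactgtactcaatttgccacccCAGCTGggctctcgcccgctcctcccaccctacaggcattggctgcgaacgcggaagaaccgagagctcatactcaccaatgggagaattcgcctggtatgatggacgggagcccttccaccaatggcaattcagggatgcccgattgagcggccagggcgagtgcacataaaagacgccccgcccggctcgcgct
Id3: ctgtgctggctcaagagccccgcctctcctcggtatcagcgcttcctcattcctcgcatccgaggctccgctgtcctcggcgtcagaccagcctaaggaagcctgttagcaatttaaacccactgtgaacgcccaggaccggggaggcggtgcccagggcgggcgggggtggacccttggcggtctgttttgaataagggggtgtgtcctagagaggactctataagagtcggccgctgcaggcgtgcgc
Id4: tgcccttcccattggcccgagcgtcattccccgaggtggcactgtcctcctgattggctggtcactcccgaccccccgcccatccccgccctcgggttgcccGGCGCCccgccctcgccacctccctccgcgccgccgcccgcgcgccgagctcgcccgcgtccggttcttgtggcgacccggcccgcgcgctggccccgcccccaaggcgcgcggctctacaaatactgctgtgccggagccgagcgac
The motifs searched were GGCGCC (a GC-rich element bound by BMP SMADs), CAGACA (a SMAD element), TGACGTCA (an ATF/CREB element), TGACTCA (an AP-1 element) and the E-boxes CAGCTG and CACCTG. The Id2 window held GGCGCC from −231 to −226 and CAGCTG from −196 to −191 relative to the start, and the Id4 window held GGCGCC from −148 to −143. None of the 6 motifs was matched in the Id3 window, and no matches overlapped. Of the E-protein genes, Tcf3 had no match in its window, and Tcf12 had CAGCTG from −240 to −235 in 1 of 3 windows. In total 5 of the 7 genes (Id2, Id3, Id4, Tcf3 and Tcf12) were matched to 7 windows. Over all 32851 RefSeq windows of this length, GGCGCC was present in 9.59%, CAGCTG in 13%, CACCTG in 17.2%, CAGACA in 17.1%, TGACTCA in 4.46% and TGACGTCA in 1.55%, so the matches describe these letters and no binding was measured.

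The Id genes are short and the E-protein genes long, so levels were compared between genes only per kilobase of merged exon (RPKM). In the annotation of the count table (build NCBIM37) Id1 spans chr2:152561987-152563146 with 1160 exon bases, Id2 chr12:25778666-25780957 with 1270, Id3 chr4:135699412-135701670 with 1791 and Id4 chr13:48356796-48359405 with 1660. Tcf3 spans chr10:79872259-79896392 with 4039 exon bases, Tcf4 chr18:69503800-69847621 with 12250 and Tcf12 chr9:71692059-71959626 with 4861. Over the 8 libraries the mean level was 84.6 RPKM for Id2, 72.6 for Id1, 27.1 for Tcf12, 19.6 for Tcf3, 16.96 for Id3, 1.88 for Tcf4 and 0.030 for Id4. These means put Id2 and Id1 at the 94.4th and 93.2nd percentile of the 13028 tested genes, and Tcf4 at the 15.9th. Tcf12 and Tcf3 overlapped in the control group, at 25.4 ± 3.71 and 19.99 ± 4.21 RPKM (SD, n = 2), and Tcf3 and Id3 did as well, with Id3 at 24.7 ± 7.84. Id2 was above Id1 in the control group (130.5 ± 18.1 against 95.5 ± 10.2 RPKM) but not in the untreated libraries labelled knockout (53.7 ± 7.02 against 59.8 ± 6.05), where the means differed by less than the spread. By library, Id2 was the higher of the pair in all 4 control libraries and Id1 in all 4 labelled knockout.

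Id4 was at the limit of detection. It had 3 counts in control_TGFb2h replicate 2, 1 count in KO_TGFb2h replicate 1 and 0 in the other libraries, where 0 counts allow up to 0.238 to 0.661 CPM depending on depth. It failed the filter on low counts and was not tested, so the tests below cover 6 of the 7 genes. An annotated antisense RNA, A330033J07Rik, shares 171 exon bases with Id4 and had 0 counts in all libraries. Of the E-protein genes, Tcf12 holds Rpl15-ps2 on the opposite strand with no shared exon base and 195 counts over all libraries.

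**Figure D1:**
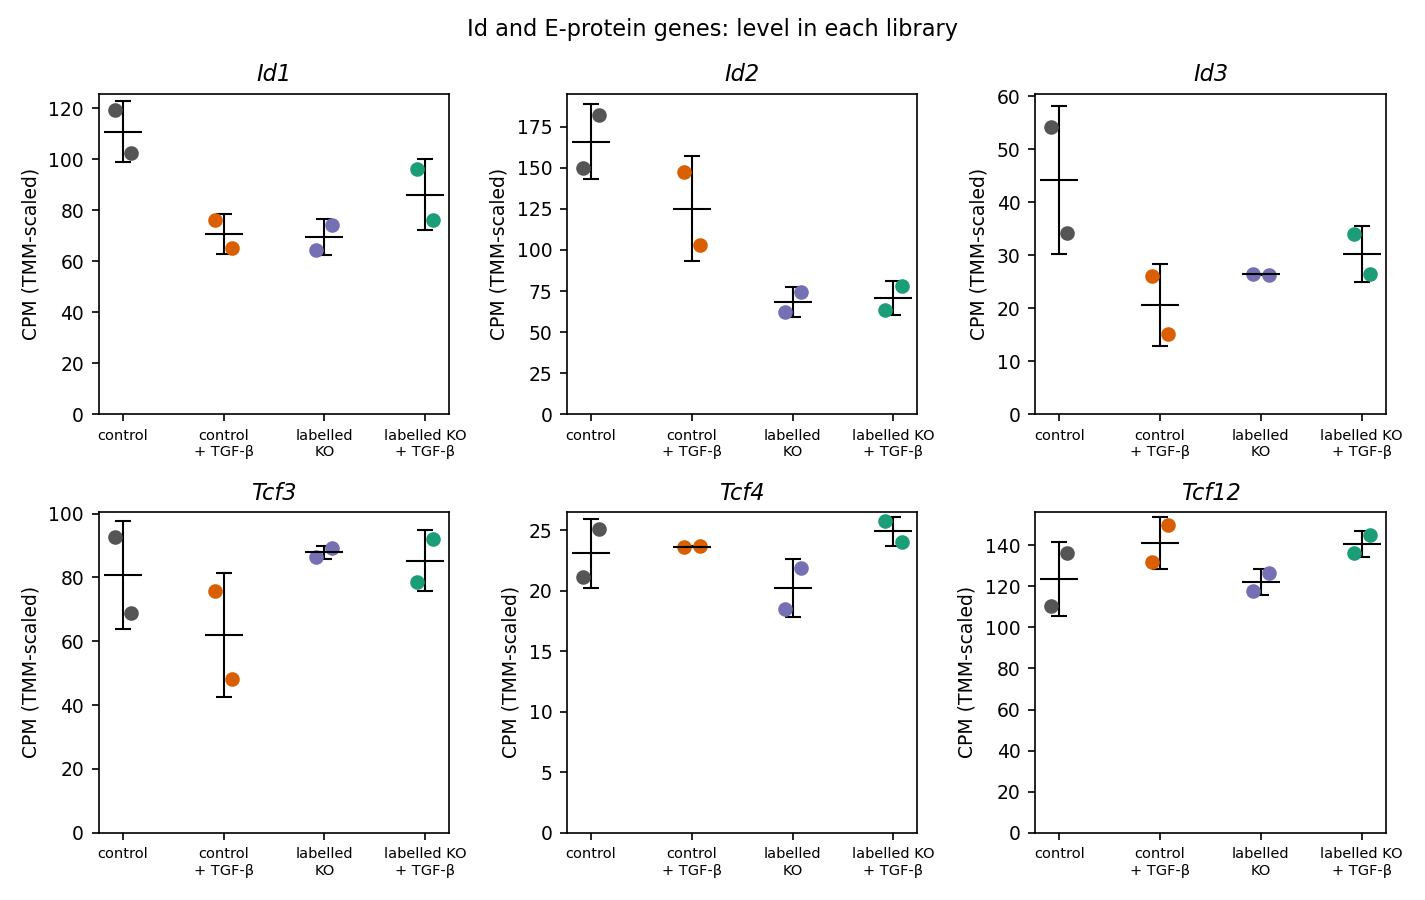
Level of each tested gene (y axis, TMM-scaled CPM, from 0) in the 4 groups (x axis). Points are libraries, the horizontal bar is the mean and the whiskers are the SD (n = 2); Id1 and Id3 are highest in the control group, Id2 is lower in all 4 libraries labelled knockout, and the libraries stay within 48.3 to 92.8 CPM for Tcf3, 18.5 to 25.8 for Tcf4 and 110.6 to 149.96 for Tcf12.

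The first comparison asked how the family responded to 2 h of TGF-β in control cells. Id1 and Id3 were called lower, and Id2 and the 3 E-protein genes did not pass the test. A gene was called at an adjusted p below 0.05 (edgeR's quasi-likelihood test, Benjamini-Hochberg over 13028 genes) and an absolute log2 fold change above 0.5. Of the 6 genes 2 were called lower and 0 higher, beside 4.47% of all tested genes called lower and 4.69% called higher. Id1 was at 119 and 102 CPM in the control libraries and at 76.2 and 65.2 after TGF-β, with no overlap. With 2 libraries a group such separation was common: 26.3% of all tested genes were separate and lower in this comparison and 27.4% higher, and the shares were 28.3% and 28.4% after TGF-β in the libraries labelled knockout, 25.2% and 26.8% between the untreated lines and 27.4% and 28.4% between the treated lines, so it is given as a description. The log2 fold change of Id1 was −0.65 (SE 0.17, adjusted p = 0.0480). Id3 was at 54.2 and 34.3 CPM before and at 26.1 and 15.1 after TGF-β, again with no overlap. Its log2 fold change was −1.10 (SE 0.29, adjusted p = 0.0480), but the libraries of each group lay far apart. In bulk libraries, less RNA of a gene per cell and fewer cells that express it cannot be told apart.

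Both calls were close to the threshold. With the GC correction Id3 was still called (log2 fold change −0.996, adjusted p = 0.0285) and Id1 was not (−0.52, adjusted p = 0.0585). The 1000 genes nearest to Id1 in GC content (54.7%) had a median log2 fold change of −0.12 in this comparison. Leaving out control replicate 1 gave Id1 −0.53 (adjusted p = 0.278) and Id3 −0.73 (0.319), leaving out control replicate 2 gave −0.75 (0.118) and −1.39 (0.0675), and leaving out control_TGFb2h replicate 2 gave −0.56 (0.116) and −0.78 (0.117). Without KO replicate 1 or KO replicate 2, which enter only through the shared spread, the adjusted p was 0.0828 and 0.0834 for Id1 and 0.0891 and 0.0885 for Id3. When all libraries were thinned to the smallest total, the log2 fold change was −0.56 for Id1 (adjusted p = 0.184) and −1.18 for Id3 (0.0660). Over 20 alternatives the value for Id1 ranged from −0.77 to −0.52 and for Id3 from −1.55 to −0.73, so the direction held in each while 10 and 8 of them ended the call. The summed epithelial markers and the depth moved with the treatment as given above, and the part of the markers in these values was not tested.

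Id2, the most abundant of the family in control cells, was at 149.6 and 182 CPM before and at 147.6 and 102.8 after TGF-β, so the treated libraries lay below the untreated ones by a small margin. Its log2 fold change was −0.40 with a 95% interval from −0.87 to 0.06 (adjusted p = 0.241). With the GC correction it was −0.48 (edgeR adjusted p = 0.218), near the corrected −0.52 of Id1, and neither was called. Among the E-protein genes, Tcf12 (HEB) was at 110.6 and 136 CPM before and 132 and 149.96 after, with overlapping groups and a log2 fold change of 0.19 (95% interval −0.15 to 0.53). Tcf4 (E2-2) was at 21.1 and 25.1 before and 23.6 and 23.7 after, with a log2 fold change of 0.03 (−0.39 to 0.45). Tcf3 (E2A) was at 92.8 and 68.7 before and 75.6 and 48.3 after, with a log2 fold change of −0.38 (−0.89 to 0.13). Tcf3 has a GC content of 60.8%, at the 97.3rd percentile of tested genes. The 1000 nearest genes in GC had a median of −0.31 here, and with the GC correction the 4 libraries were at 82.5, 74.8, 78.9 and 72.6 CPM and the log2 fold change was −0.05 (SE 0.12).

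The same comparison in the libraries labelled knockout gave no call. By edgeR, 0 of the 6 genes passed the threshold and 0 had an unadjusted p below 0.05, and DESeq2 and limma-voom also called 0, beside 4.25% of all tested genes called higher and 2.57% called lower. Id1 was at 64.4 and 74.3 CPM before and at 96.0 and 76.1 after TGF-β, so both treated libraries lay above the untreated ones. Its log2 fold change was 0.31 with a 95% interval from −0.08 to 0.70 (adjusted p = 0.337). Id3 was at 26.45 and 26.32 CPM before and at 34.0 and 26.54 after, where the second treated library exceeded the untreated ones by less than 1 CPM. Its log2 fold change was 0.20 (−0.46 to 0.86), and with the GC correction the groups overlapped (24.3 and 24.6 CPM before, 33.5 and 24.5 after). Id2 was at 61.9 and 74.6 before and 63.3 and 78.0 after, with overlapping groups and a log2 fold change of 0.05 (−0.43 to 0.52). Tcf3, Tcf4 and Tcf12 gave log2 fold changes of −0.04 (−0.55 to 0.46), 0.29 (−0.13 to 0.72) and 0.20 (−0.14 to 0.55). Treated libraries also lay above the untreated ones for Tcf4 (18.5 and 21.9 CPM before, 25.8 and 24.1 after). The same held for Tcf12 (117.5 and 126.5 before, 136.1 and 145.1 after). Thus 4 of the 6 genes were separate and higher, beside 28.4% of all tested genes.

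**Figure D2:**
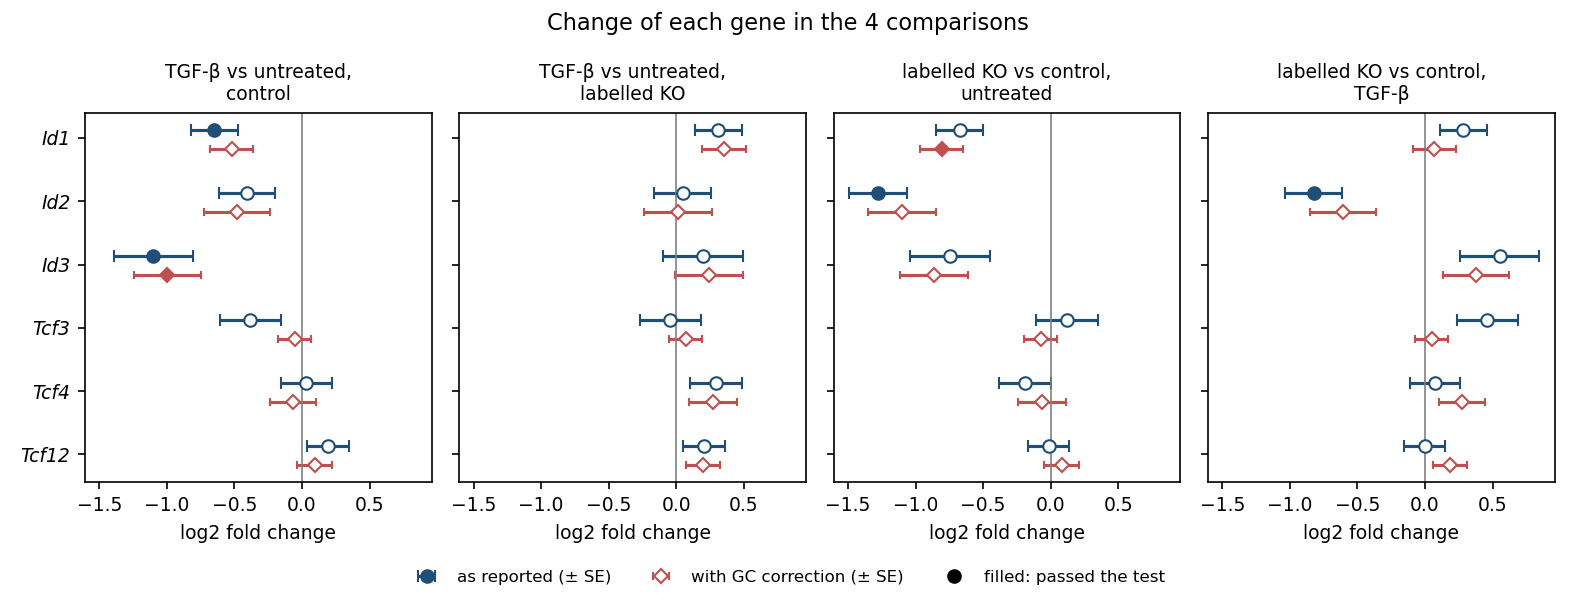
Log2 fold change (x axis) of the 6 tested genes (rows) in the 4 comparisons (panels), as reported (blue circles) and with the GC correction (red diamonds); whiskers are the standard error and filled symbols passed the test. Id1 and Id3 lie left of 0 after TGF-β in control cells and right of 0 in the libraries labelled knockout, and with the correction Tcf3 runs from −0.0741 to 0.0694 over the panels.

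Whether the TGF-β response differed between the lines was tested directly, as the response in the libraries labelled knockout minus that in control, called by the adjusted p alone. The difference was largest among the 6 genes for Id3, at 1.30 log2 units (SE 0.42, 95% interval 0.36 to 2.23), and for Id1, at 0.96 (SE 0.25, 95% interval 0.41 to 1.51). Neither passed after adjustment over all genes by edgeR (unadjusted p = 0.01154 and adjusted p = 0.495 for Id3, unadjusted p = 0.003275 and adjusted p = 0.444 for Id1). Id2 gave 0.45 (−0.21 to 1.11), and the intervals of the E-protein genes all contained 0. Of all tested genes 0% were called by edgeR, with 1134 at an unadjusted p below 0.05, while DESeq2 called 25 (907 unadjusted) and limma-voom 0 (1100 unadjusted). With the GC correction the differences were 1.24 for Id3 and 0.88 for Id1 (adjusted p = 0.294 and 0.274). The untreated control libraries, where both genes were highest, enter this difference as well as the TGF-β comparison and the comparison of the untreated lines. Without the filter on low counts both passed (edgeR adjusted p = 0.00682 and 0.0218). That fit called 211 of 20463 genes, where 0 were called with the filter. Over 18 alternatives the values ranged from 0.93 to 1.76 for Id3 and from 0.64 to 1.14 for Id1.

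Before treatment the lines differed in Id2. Untreated libraries labelled knockout had 61.9 and 74.6 CPM of Id2 against 149.6 and 182 in control, with no overlap. The log2 fold change was −1.28 (SE 0.21, 95% interval −1.75 to −0.80, edgeR adjusted p = 0.0195), a 2.42-fold lower level. Id2 was the only gene of the 6 called in this comparison, beside 0.798% of all tested genes called lower and 1.03% called higher. Id1 was at 64.4 and 74.3 CPM against 119 and 102, also without overlap, with a log2 fold change of −0.67 (95% interval −1.07 to −0.28) that did not pass (edgeR adjusted p = 0.102). Id3 was at 26.5 and 26.3 CPM against 54.2 and 34.3, with a log2 fold change of −0.75 (−1.41 to −0.08, edgeR adjusted p = 0.275). The E-protein genes gave 0.12 (−0.39 to 0.63) for Tcf3, −0.19 (−0.62 to 0.24) for Tcf4 and −0.01 (−0.36 to 0.33) for Tcf12.

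The GC correction exchanged which Id gene was called in the untreated cells. Id2, with a GC content of 42.4%, had a corrected log2 fold change of −1.10 (adjusted p = 0.0534), and Id1 one of −0.81 (adjusted p = 0.0334). Corrected levels of Id2 were 68.5 and 79.7 CPM in the libraries labelled knockout and 151.9 and 166 in control, still without overlap. The call for Id2 was lost when any of the 4 compared libraries was left out, at −1.41 without control replicate 1 (adjusted p = 0.0806), −1.13 without control replicate 2 (0.164), −1.15 without KO replicate 1 (0.209) and −1.42 without KO replicate 2 (0.137). Id1 was also called with DESeq2 (adjusted p = 0.0363), without the filter on low counts (0.0109) and from the 4 compared libraries alone (0.0137). Id3 was called without the filter (adjusted p = 0.0274) and from the 4 libraries alone (0.0461), and had −0.86 (0.121) with the GC correction. Over 20 alternatives the log2 fold change of Id2 stayed between −1.42 and −1.10, that of Id1 between −0.81 and −0.56 and that of Id3 between −1.04 and −0.38.

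**Figure D3:**
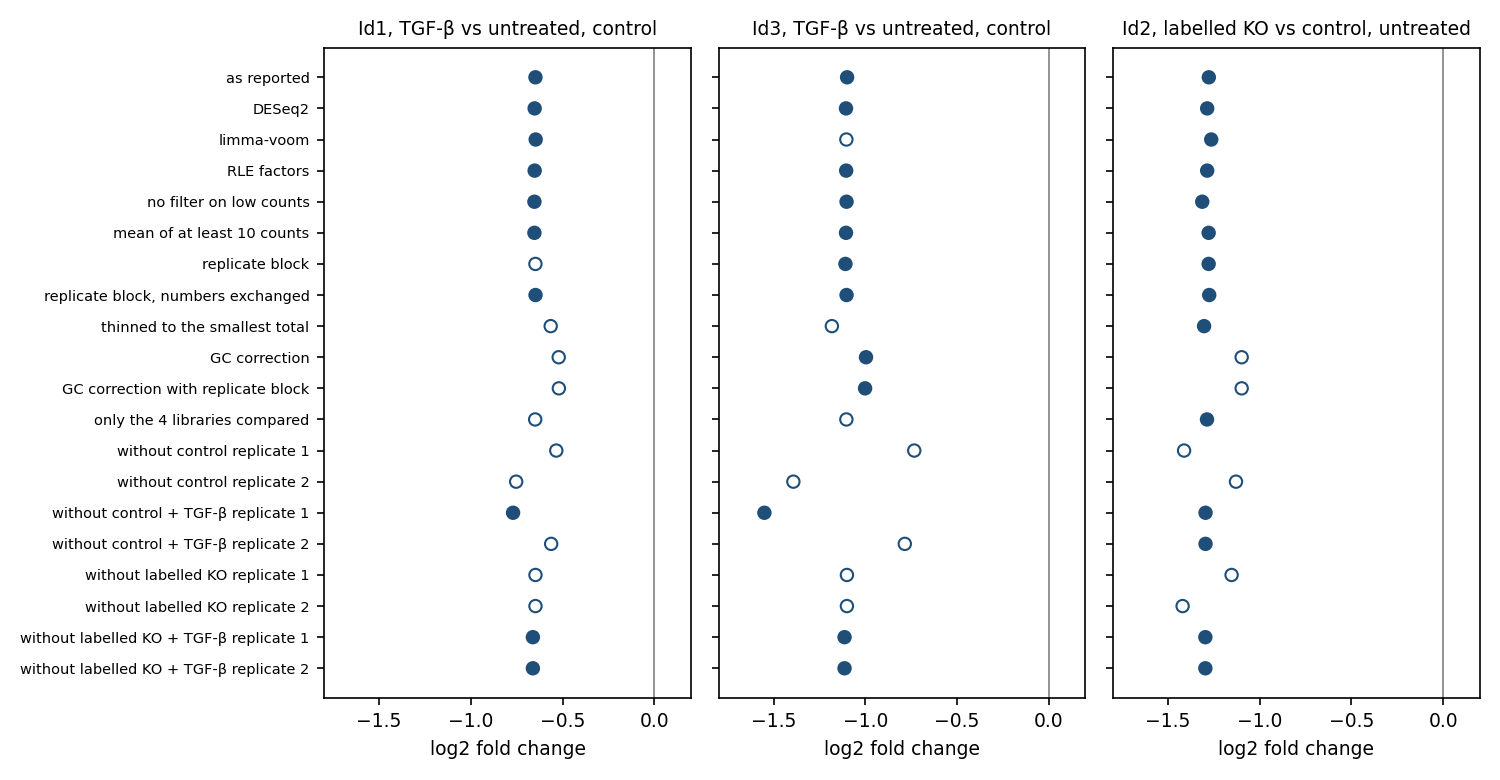
Log2 fold change (x axis) of Id1 and Id3 after TGF-β in control cells and of Id2 between the untreated lines, as reported and under 19 of the 20 alternatives (rows); the alternative without a fold change threshold, which leaves the value as it is, is not drawn. Filled points passed the test and open points did not; all points lie below 0, and leaving out a control library moves Id3 to −0.73 or −1.39.

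After TGF-β Id2 was again lower in the libraries labelled knockout. It was at 63.3 and 78.0 CPM against 147.6 and 102.8 in control_TGFb2h, without overlap. The log2 fold change was −0.82 (SE 0.21, 95% interval −1.29 to −0.36, edgeR adjusted p = 0.0290), and Id2 was the only gene of the 6 called, beside 6.57% of all tested genes called lower and 8.47% called higher. This call was also lost with the GC correction (−0.60, adjusted p = 0.122), which placed control_TGFb2h replicate 2 at 82.7 CPM and KO_TGFb2h replicate 2 at 87.5, so the corrected groups overlapped. Without control_TGFb2h replicate 1 the value was −0.54 (adjusted p = 0.0830), without KO_TGFb2h replicate 1 −0.68 (0.121) and without KO_TGFb2h replicate 2 −0.98 (0.0663), and without KO replicate 1 or KO replicate 2 the adjusted p was 0.0524 each time. Id1 did not pass, at 0.28 (95% interval −0.10 to 0.67), and its groups met at 76.1 and 76.2 CPM. Id3 was at 34.0 and 26.5 CPM against 26.1 and 15.1, a log2 fold change of 0.55 (−0.10 to 1.21). Without control_TGFb2h replicate 1 Id3 (0.996, adjusted p = 0.0412) and Tcf3 (0.82, adjusted p = 0.0255) were called higher.

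Tcf3 did not pass in the treated libraries either. It was at 78.5 and 92.1 CPM in the libraries labelled knockout and 75.6 and 48.3 in control_TGFb2h, a log2 fold change of 0.46 (95% interval −0.05 to 0.97). The 1000 genes nearest in GC had a median of 0.45, and the corrected value was 0.05 (SE 0.12). Corrected levels of Tcf3 ran from 72.6 to 82.5 CPM over all 8 libraries, against 48.3 to 92.8 without the correction. Tcf4 and Tcf12, both of low GC content (44.1% and 44.9%), moved the other way with the correction, from 0.07 to 0.27 and from −0.0037 to 0.19, and neither passed (adjusted p = 0.310 and 0.358).

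**Figure D4:**
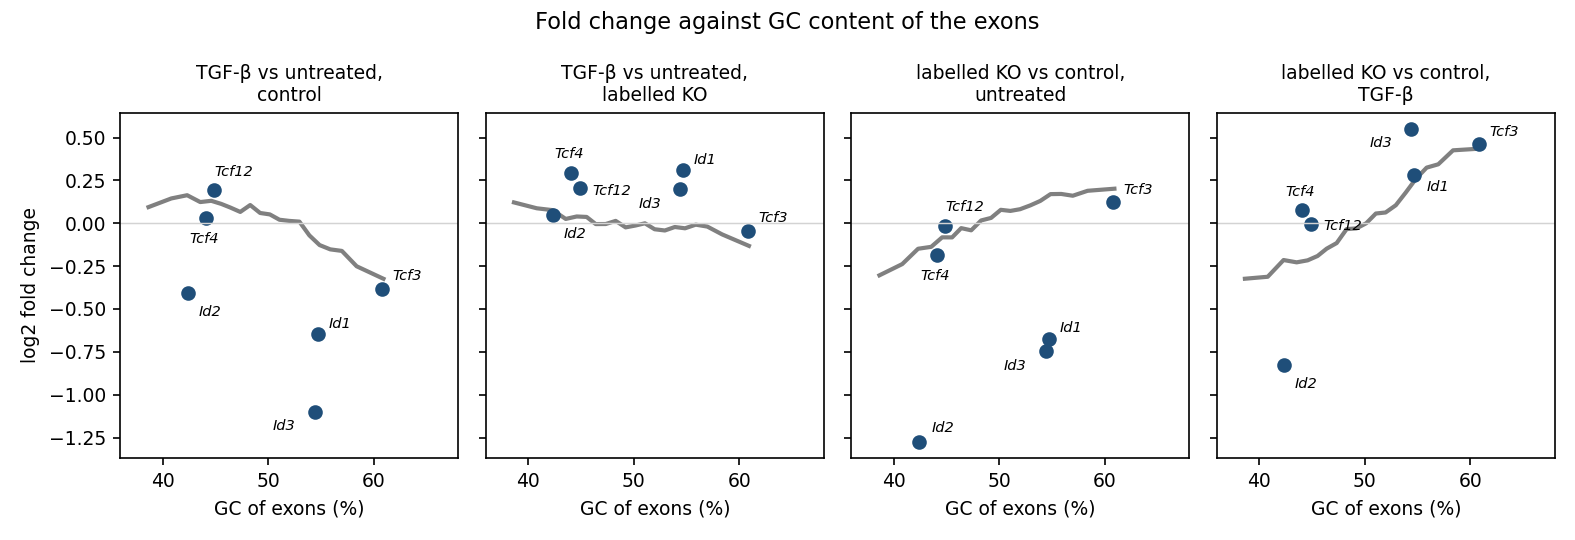
Log2 fold change (y axis) against the GC content of the exons (x axis, %) in the 4 comparisons. The grey line joins the medians of 20 bins of tested genes and the points are the 6 tested genes. Tcf3 lies close to the line in each panel. Id1, Id2 and Id3 lie below it in control cells after TGF-β and between the untreated lines, and Id2 also between the treated lines.

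The balance of the 2 classes was described by the summed RPKM of Id1, Id2 and Id3 over that of Tcf3, Tcf4 and Tcf12. It was 5.285 and 5.327 in the control libraries, 4.108 and 3.254 in control_TGFb2h, 2.529 and 2.753 in KO and 3.061 and 2.598 in KO_TGFb2h. The control libraries stood above all others, and the treated control libraries lay between them and the libraries labelled knockout. The Id sum was at 250.7 and 250.7 RPKM in control, 196.4 and 145.6 in control_TGFb2h and 119 to 151.6 in the libraries labelled knockout, while the E-protein sum stayed between 44.7 and 54.6 in all 8. By the Id sum alone control_TGFb2h replicate 2 (145.6) lay below KO_TGFb2h replicate 1 (151.6), so the order of the ratio also rests on the E-protein sums of these libraries (44.7 and 49.5). Id2 made up 47.0 and 57.2% of the Id sum in control and 32.9 to 43.3% in the libraries labelled knockout, and Id1 made up 41.0 and 35.2% and 46.3 to 54.6%. Tcf12 and Tcf3 shared nearly all of the E-protein sum, with Tcf4 between 3.21 and 4.36%. The ratio describes mRNA, protein was not measured, and with 2 libraries a group no test of it was made.

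**Figure D5:**
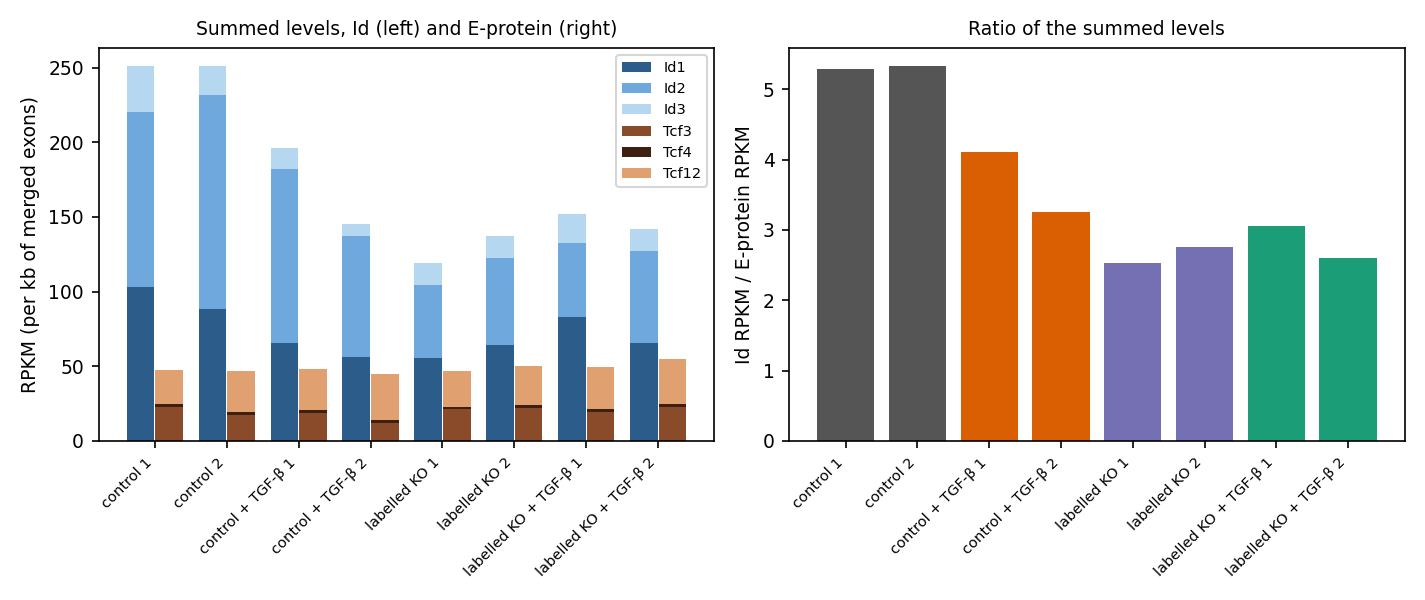
Left, summed RPKM (y axis) of the Id genes (blue) and the E-protein genes (brown) in each library (x axis). Right, their ratio, which is above 5 in both control libraries and between 2.5 and 3.1 in the 4 libraries labelled knockout.

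Across the 8 libraries the members did not move as a block. The Pearson correlation of log2 CPM was 0.881 between Id1 and Id3, 0.516 between Id1 and Id2 and 0.295 between Id2 and Id3, and 0.734 between Tcf4 and Tcf12. Tcf3 was related to Id3 at 0.665 and to Tcf12 at −0.625, and Id3 to Tcf12 at −0.69. These are descriptions over 8 points that share library, depth and base composition. The tested genes most like Id2 were Aif1l (r = 0.981), Scarb1, the receptor for high-density lipoprotein (0.980), and Dio3, the deiodinase that inactivates thyroid hormone (0.972). Their GC contents of 51.6, 52.5 and 57.8% were above the 42.4% of Id2. Those most like Id1 were Gm17383 (0.961), 0610009E02Rik (0.935) and Gm5559 (0.934), and those most like Id3 included Fam86 (0.898) and Mboat7 (0.894). Rcc2 (0.990), Mbd3 (0.985) and Apba3 (0.985) were most like Tcf3, and their GC contents of 57.9, 63.1 and 61.8% were also high. Glt28d2 (0.981), Atp13a3 (0.967) and Ube2g1 (0.947) were most like Tcf4, at GC contents of 40.7 to 41.5%. For Tcf12 they were Pla2g7 (0.967), Zfyve9 (0.961) and Gapvd1 (0.955).

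Genes upstream of the Id family were followed as lists, to be read beside the shares of all tested genes called higher (4.69% in control and 4.25% in the libraries labelled knockout after TGF-β) and lower (4.47% and 2.57%). Of 15 receptors and SMADs 12 were tested, and 4 rose after TGF-β in control cells with 0 falling: Tgfbr1 and Acvr1, type I receptors (log2 fold changes 2.41 and 2.38), Bmpr2, the BMP type II receptor (1.11), and Smad3 (0.80). In the libraries labelled knockout 4 rose as well, at 2.55, 2.30, 1.27 and 0.99 for these genes in the same order. The median of the list was 0.257 in control and 0.306 in the libraries labelled knockout, beside 0.016 and 0 over all tested genes. Of 10 feedback regulators and antagonists 7 were tested, of which 4 rose in control and 5 in the libraries labelled knockout. They were Skil, a SMAD co-repressor (2.10 and 2.34), Smad7, the inhibitory SMAD (1.69 and 2.28), Fst, the activin and BMP antagonist follistatin (1.01 and 2.62), the ubiquitin ligase gene Smurf2 (0.96 and 0.84) and, in the libraries labelled knockout, Smurf1 (0.66, adjusted p = 0.111, and 1.05, with a difference that did not pass, adjusted p = 0.776). With the GC correction Smurf1 was also called in control, which made 5 in each line. Atf3, which represses Id1 with SMAD3, had log2 fold changes of 1.88 and 2.00 that did not pass (edgeR adjusted p = 0.0717 and 0.0787), and it passed in both lines with the GC correction. Its untreated libraries were at 15.6 and 15.6 CPM in control and 10.6 and 14.1 in KO. The treated libraries of Atf3 lay far apart, at 77.8 and 36.7 CPM in control_TGFb2h and 19.7 and 80.3 in KO_TGFb2h. Between the untreated lines Fst was the only called gene of these lists, at −3.49 (edgeR adjusted p = 0.00169), beside 0.798% of all tested genes called lower, and after TGF-β it was at −1.88 (adjusted p = 0.00395), beside 6.57%.

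Genes that act with or beside the family were mostly not called. Between the treated lines their counts stand beside 8.47% of all tested genes called higher and 6.57% called lower. Counts after TGF-β stand beside the shares given for the upstream lists. Of 27 class II bHLH factors, the tissue-restricted partners of E proteins, 3 passed the filter on low counts, and Scx rose after TGF-β in control cells (0.82, edgeR adjusted p = 0.0356) but had 0.32 (adjusted p = 0.391) in the libraries labelled knockout, a difference of −0.51 that did not pass (adjusted p = 0.648). Of 10 Hes, Hey and Bhlhe repressors 5 were tested. Bhlhe40 rose (1.60 in control and 2.62 in the libraries labelled knockout) and Hes1, the Notch target, fell (−1.19 and −1.73), and after TGF-β KO_TGFb2h exceeded control_TGFb2h in Bhlhe40 (1.06), Bhlhe41 (1.46) and Hes6 (0.94), in Hes6 not so with the GC correction. Of 8 partners of Id proteins outside the bHLH family, 2 ETS factors rose after TGF-β, Ets1 (1.46 and 1.56) and Elk3 (0.79 and 0.94). Rbl1, a pocket protein of the RB family, was lower in the treated libraries labelled knockout (−1.06, adjusted p = 0.0121), as was Usp1, the deubiquitinase that stabilizes Id proteins (−0.96, adjusted p = 0.0177). The 6 tested of 9 E-protein cofactors had median log2 fold changes between −0.0875 and 0.182 in the 4 comparisons, without a call. Of 4 tested genes described as E-protein targets, Cdh1 (E-cadherin, 0.61) and Cdkn2a (0.98) were higher in KO_TGFb2h than in control_TGFb2h, Cdkn2a not so with the GC correction, and 0 were called in the other 3 comparisons. With the GC correction calls were also gained by Rbl2 (lower after TGF-β in control), Rbl1 and Usp1 (lower after TGF-β in the libraries labelled knockout) and, between the treated lines, Tgfbr1, Smad1 and Rbl2 (higher) and Scx (lower).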

How the data were processed

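RNA from 8 libraries of NMuMG cells was sequenced by the authors. The table they deposited holds raw read counts per gene (whole numbers, not normalized), with identifiers equal to GENCODE vM1 on NCBIM37. The sources name mm10, HISAT2 and limma in the submitters' processing notes and subjunc and DESeq2 in the methods, and they differ on the kit and sequencer. The counting tool and its strand setting were not given in the sources used here, so reads of a gene and of an antisense partner cannot be told apart.

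Counts were tested with edgeR 4.0.16 (R 4.3.3): TMM factors, filterByExpr (minimum count 10), quasi-likelihood fit of the 4 group means on all 8 libraries (13028 genes, biological coefficient of variation 0.18), Benjamini-Hochberg adjustment. Thresholds were those of the methods (adjusted p 0.05, log2 fold change 0.5). CPM and RPKM used effective library sizes. Intervals are at 95%. The floor of a 0 count was 3 counts and covers counting error only. The edgeR steps were run on simulated counts for the TGF-β comparison in control cells only. These counts held no GC effect, so the GC correction and the other alternatives were not covered. DESeq2 1.42.0, limma-voom (limma 3.58.1), other filters, thinning, a replicate block and each library left out were alternatives. The GC correction (a loess of each library's log2 deviations on exon GC, span 0.3, used as offset) was chosen after seeing the data. The 7 members, the genes called from the lists and the 3 most correlated genes per member were named by rule, except 1 that is not reported here. Members and lists were chosen with earlier results of these data known. Replicate numbers are titles only and were not taken as pairs.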

Additional observations from a re-analysis of the deposited data

Results flagged for a closer look

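Id1 and Id3 are given here because their libraries lay on opposite sides in the 2 lines after TGF-β, although neither passed the test in the libraries labelled knockout (edgeR adjusted p = 0.337 and 0.744). Of all tested genes 26.3% were separate and lower in control, and 28.4% were separate and higher in the libraries labelled knockout. The share of genes with both was not counted, so the pattern is a description. For Id1 both treated control libraries (76.2 and 65.2 CPM) lay below the untreated ones (119 and 102), whereas both treated libraries labelled knockout (96.0 and 76.1) lay above theirs (64.4 and 74.3), a difference of responses of 0.9572 log2 units. For Id3 the treated control libraries (26.1 and 15.1 CPM) lay below the untreated ones (54.2 and 34.3) and the treated libraries labelled knockout (34.0 and 26.54) above theirs (26.45 and 26.32), a difference of 1.297. The separation of Id3 in the libraries labelled knockout was under 1 CPM, and it was lost with the GC correction, at 24.29 and 24.56 CPM before and 33.48 and 24.47 after, while Id1 was at 58.8 and 68.95 before and 94.1 and 69.6 after. The difference itself was tested by edgeR and did not pass for either gene (adjusted p = 0.444 for Id1 and 0.495 for Id3). The untreated libraries of both lines enter this difference. Groups of 2 libraries were too small to look for a single library far from the others. Over all tested genes the libraries of control_TGFb2h lay furthest apart, with a median absolute log2 difference of 0.334. It was 0.209 in control, 0.2 in KO and 0.218 in KO_TGFb2h.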

How the results depend on the processing

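The number of members called moved with the processing. After TGF-β in control cells it was 2, and it was 1 with limma-voom, the GC correction, and the GC correction with the block, 0 with thinned counts and from the 4 compared libraries alone, and 0 to 2 with a library left out. Between the untreated lines it was 1, and it was 2 with DESeq2, 3 without the filter on low counts, 3 from the 4 libraries alone, 0 with the GC correction and block, and 0 to 1 with a library left out. Between the treated lines it was 1, and it was 0 from the 4 libraries alone, 0 with the GC correction, with and without the block, and 0 to 2 with a library left out. For the difference of responses it was 0, and 2 without the filter. With a library left out, the lone library of its group is assumed to vary like the other groups. The causes were not tested.

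Replicate numbers were used as a block in an alternative that pairs libraries by title. It left 1 member called after TGF-β in control cells, since Id1 had an adjusted p of 0.0615, changed no other member's call, and moved the genes called between the untreated lines from 238 to 150. Same-numbered deviations correlated at 0.297, −0.00915, 0.098 and −0.473 between groups. With the numbers of KO_TGFb2h exchanged, chosen after seeing the data, 1954, 1550, 540 and 5 genes were called in place of 1194, 889, 238 and 0 in the 2 TGF-β comparisons, the untreated lines and the difference.

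Directions reversed only for values near 0 that were never called. With the GC correction, and then with its block, Tcf4 in control cells was −0.0672 and −0.0651, Tcf3 in the libraries labelled knockout 0.0694 and 0.0690, Tcf3 between the untreated lines −0.0741 and −0.0716, and Tcf12 0.0828 and 0.0842 between the untreated and 0.186 and 0.183 between the treated lines. Without the filter Tcf3 in the libraries labelled knockout was 0.0176 and Tcf12 between the treated lines 0.0297, with exchanged numbers the latter was 0.00187, and with thinned counts the difference for Tcf12 was −0.0239. With a library left out, Tcf4 in control cells ran from −0.0878 to 0.165, Id2 in the libraries labelled knockout from −0.103 to 0.199 and Tcf3 there from −0.155 to 0.0765, Tcf3 between the untreated lines from −0.0778 to 0.355, Tcf12 between the untreated lines from −0.157 to 0.142 and between the treated lines from −0.0963 to 0.105, and its difference of responses from −0.146 to 0.153. Over all members' fold changes 519 alternatives kept direction and side of the threshold, 32 lost a call, 10 gained 1 and 27 reversed.

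Counts over all genes moved by over 1.5 times in several settings. After TGF-β in control cells 1194 became 2021 without the filter, 752 with thinning and 483 from the 4 libraries alone, and in the libraries labelled knockout 889 became 1832 without the filter and 1346 with the GC correction. Between the untreated lines 238 became 428 with DESeq2, 137 with limma-voom, 756 without the filter, 127 with thinning and 797 from the 4 libraries alone. Between the treated lines 1959 became 402 from the 4 libraries alone. For the difference 0 became 25 with DESeq2, 211 without the filter and 3 with the GC correction. With a library left out the counts ran from 139 to 1479 for control and from 136 to 1381 for labelled knockout after TGF-β, from 41 to 393 between the untreated and from 486 to 2788 between the treated lines, and from 0 to 6 for the difference. Id4 had at most 3 counts in a library and stayed out of the tests.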
